A study of Mus musculus with 6 samples.

Results

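The Atf3-high alveolar fibroblasts (FBs) were 1719 cells from the lungs of Pdgfra-GFP mice that had received PBS once weekly for 3 weeks. They were selected on a measured value, at least 5 UMIs (unique molecular identifiers, 1 for each captured mRNA molecule) of Atf3, from the 3580 cells of that library that passed a gate for alveolar FBs. The gate asked for at least 5000 UMIs, no UMI of Ptprc, Pecam1 or Epcam (leukocyte, endothelial and epithelial genes), at least 1 UMI of Tcf21, a transcription factor of alveolar FBs, and no UMI of Pi16 or Scara5, genes of adventitial FBs. The reference was the 1206 gated cells with Atf3 at 0, and 655 gated cells lay between the 2 classes, with 1 to 4 UMIs. The library held 6139 barcodes and the whole series 33286, in 6 libraries. All donors of the lung libraries were male mice of 10 to 14 weeks with an EGFP reporter in the Pdgfra gene (labelled Pdgfra-GFP or PDGFRa-EGFP). Sorting for GFP thus aimed at cells with an active Pdgfra locus. The sorted lung libraries also held barcodes with UMIs of Ptprc or Pecam1. The repetitive PBS and repetitive bleomycin mice received 50 μl per dose by oropharyngeal aspiration, the bleomycin doses being 1 U/Kg for the first 2 and 0.5 U/Kg for the last, and the single-dose mice received 50 μl PBS or bleomycin once (2 U/Kg in the protocol, 4 U/Kg in a sample label). Lungs of 3 mice per condition were taken 14 days after the last dose, pooled, digested with collagenase, elastase, DNase1 and Dispase, and sorted for GFP. The labels tie no cell to a mouse. Another 2 libraries came from cultured organoids and enter no comparison below.

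Atf3 encodes a transcription factor of the ATF/CREB family that is low in resting cells and pairs with JUN proteins. FOS and JUN proteins form AP-1, and their genes belong to the immediate early genes, which are transcribed within minutes of a signal without new protein synthesis and whose mRNAs are short-lived. Growth factors, cytokines, mechanical force, heat and the dissociation of a tissue are all known to induce them. Alveolar FBs, which include the lipid-storing lipofibroblasts (LipoFBs), lie beside AEC2s, the epithelial cells that make surfactant, and supply them with lipid and growth signals.

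Atf3 was spread widely over the gated cells. The lowest member had 5 UMIs, the median member 17 and the highest 135, and 1336 of the 1719 members had at least 10. At the edge of the rule, 112 cells had exactly 4 Atf3 UMIs and 75 had exactly 5. Their levels, as pooled CPM (the gene's UMIs per 1000000 UMIs of all cells of the class), were close: Fos stood at 2865 CPM in the cells just outside and 2445 CPM in those just inside, Junb at 2183 and 2393 CPM, and Inmt at 4684 and 4619 CPM. The chemokine gene Cxcl1 differed more, with 204 CPM outside and 445 CPM inside, as did Ccl2, with 128 and 361 CPM, and Il6, with 109 and 173 CPM, whereas Cxcl10 was lower inside, with 228 CPM outside and 133 CPM inside. Cells were found at every count from 1 UMI to well above the limit, so the edge of the class is a choice on a continuous range.

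**Figure D1:**
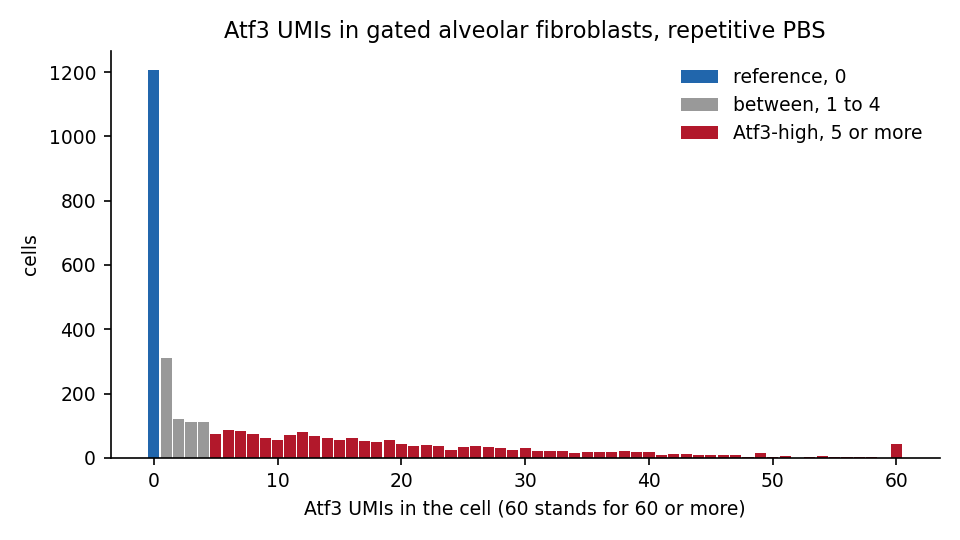
Number of gated alveolar FBs of the repetitive PBS library (y axis) by Atf3 UMIs in the cell (x axis, 60 standing for 60 or more). Blue is the reference at 0 (1206 cells), grey the 655 cells of 1 to 4 UMIs and red the 1719 Atf3-high cells, whose range has no gap from the grey cells.

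The members had somewhat more UMIs per cell than the reference. Members had a median of 12122 UMIs per cell (range 5025 to 38643) and 3604 detected genes, and reference cells a median of 9612 UMIs (5012 to 32992) and 3277 genes. Mitochondrial genes took a median of 2.79% of UMIs in members and 3.31% in reference cells, and ribosomal protein genes took 10.4% and 11.9% of all UMIs. The part of this depth difference in the results was not tested, and values in cells thinned to 5000 UMIs each stand beside those where it matters. Doublets were kept. At most 30 barcodes were shared by any 2 of the 6 libraries.

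By the medians of their markers the members were alveolar FBs. The summed level of Npnt, Col13a1, Wnt2, Inmt, Limch1 and Mettl7a1 had a median of 10524 CPM per cell in members and 12878 CPM in reference cells, against 1227 CPM in 93 adventitial barcodes of the same library (Tcf21 at 0, at least 3 UMIs of Pi16 and Scara5). The low end overlapped: the lowest member had 0 CPM and the members' 5th percentile was 5618 CPM, while the highest adventitial barcode had 7296 CPM. The 7 adventitial markers, among them Dcn, Ly6a and Dpt, had a median sum of 1628 CPM in members, 1686 CPM in the reference and 21340 CPM in the adventitial barcodes. The highest member stood at 36244 CPM and the highest reference cell at 19534 CPM. Sums of up to 5000 CPM were found in 1518 of the 1719 members and 1114 of the 1206 reference cells, so that cells above that level, with Pi16 and Scara5 at 0, made up a larger part of the members.

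Across the 8378 genes at 10 CPM or more over all gated cells, 293 were at least 2-fold higher in members (a log2 ratio of pooled CPM of at least 1 after adding 1 CPM to each) and 27 were at least 2-fold lower. These are 3.5% and 0.322% of the genes compared. The counts given for each list of this library below are to be read against these shares. The classes were set by Atf3 in these same cells, so the counts describe the classes and carry no test. The 10 CPM limit was set over all gated cells, of which more were members than reference cells. A gene high only in members therefore passed it more easily than one high only in the reference, which favours the count of higher genes. Listed genes that passed the limit while under 10 CPM in the reference include Fosl1, Egr2, Egr3, Srf, Trib1, Ccl7, Il33, Has1 and Ly6a. The counts of higher genes in the lists below carry the same limit. Of the higher genes, 106 exceeded a log2 ratio of 2 and 24 a ratio of 3, whereas 86.3% of all genes lay within 0.5 of the median gene. The higher genes made up 9.25% of the members' UMIs and 2.21% of the reference's. The median gene accordingly stood at a log2 ratio of −0.12, and after centring on it 353 genes were higher and 14 lower. Ratios below are uncentred and are to be read against −0.12.

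**Figure D2:**
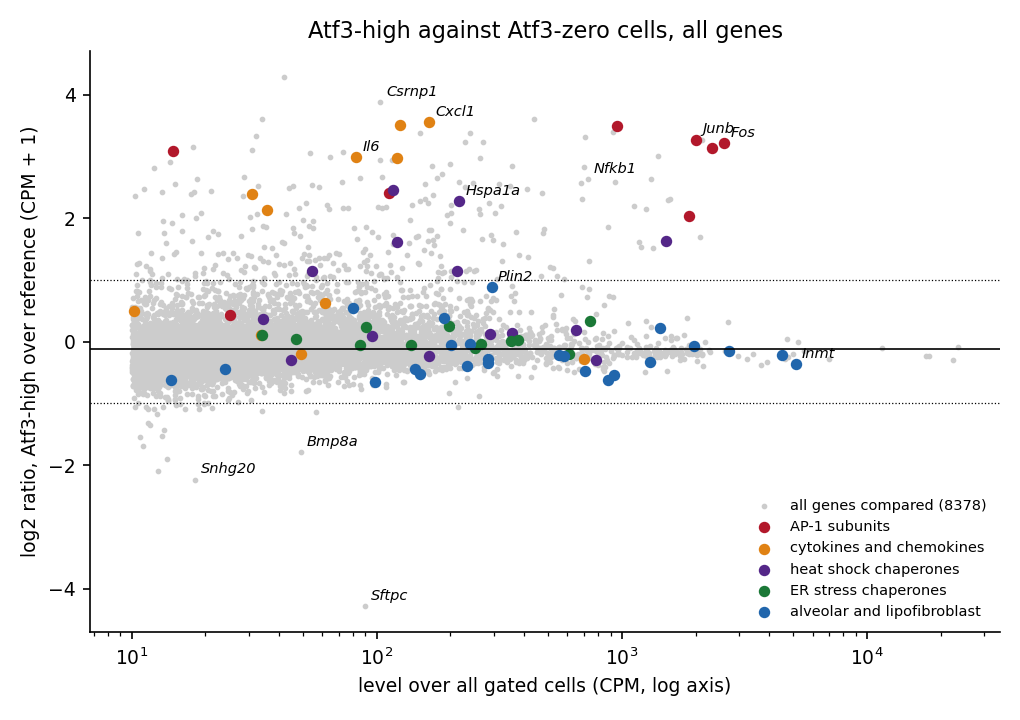
Log2 ratio of pooled CPM (plus 1) of Atf3-high over reference cells (y axis) against the level over all gated cells (x axis, log scale), 1 point for each of the 8378 genes. The solid line is the median gene (−0.12) and the dotted lines mark ratios of −1 and 1; AP-1 subunits and several cytokines sit above, ER stress chaperones and alveolar genes lie close to the line, and Sftpc at −4.28 rests on a single reference barcode.

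The AP-1 subunits, among them the JUN partners of Atf3, were the highest list. Of the 8 subunits compared, 7 were at least 2-fold higher (3.5% of all genes were) and the median log2 ratio was 3.12. Among the 7, Fosl1, at 1.89 CPM in the reference, passed the 10 CPM limit through the cells with Atf3 UMIs. Fos stood at 4061 CPM in members (exact 95% Poisson interval 4034 to 4087) and 434 CPM in the reference (423 to 446), a log2 ratio of 3.22. These intervals, like the others below, cover counting error alone, since all cells come from 1 pool of mice. In cells thinned to 5000 UMIs, members had between 0 and 86 Fos UMIs with a median of 18, and reference cells between 0 and 38 with a median of 0. The classes overlapped at the ends: 3.2% of reference cells reached the members' median. Fos was thus seen in 99.4% of members and 38.2% of reference cells after thinning (99.8% and 49.4% before), and 11.5% of reference cells (139 of 1206) had at least 5 Fos UMIs without any of Atf3.

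Its relatives ran close to Fos. Fosb was at 1498 CPM in members and 132 CPM in the reference (log2 ratio 3.49), Junb at 3117 and 321 CPM (3.27) and Jun at 3566 and 402 CPM (3.15). Jund, a subunit made at a steadier rate, was present in 88.0% of thinned reference cells and had the smaller log2 ratio of 2.03, at 2704 and 661 CPM. The FOS-like subunit genes were expressed at lower levels, Fosl2 at 166 and 30.4 CPM (2.41) and Fosl1 at 23.6 and 1.89 CPM (3.09). Jdp2, a repressor subunit, was the lowest of the list, with 28.6 and 20.9 CPM (0.43). Batf and Batf3 were below 10 CPM and were not compared.

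The other immediate early transcription factors followed the same pattern, with 18 of 20 at least 2-fold higher and a median of 2.49. Csrnp1, a nuclear protein rich in cysteine and serine, had the largest ratio of the list, 171 CPM against 10.7 CPM (log2 ratio 3.88). It was seen in 44.7% of thinned members and 4.6% of thinned reference cells (67.9% and 7.0% unthinned). The orphan nuclear receptor genes were all high, Nr4a3 at 694 and 55.8 CPM (3.61), Nr4a1 at 1111 and 110 CPM (3.32) and Nr4a2 at 417 and 43.4 CPM (3.23). Klf4, a zinc finger factor, stood at 387 and 36.2 CPM (3.38). The growth-factor-induced Egr1 was at 2134 and 265 CPM (3.00) and Egr2 at 47.4 and 4.60 CPM (3.11). Maff, a small MAF protein, followed at 304 and 40.3 CPM (2.88). At the other end, Klf9, a glucocorticoid-responsive factor, stood at 437 and 251.5 CPM (0.79).

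Genes that switch such signals off were also high in the same cells. Of 21 feedback inhibitors, 14 were at least 2-fold higher, and the median was 1.31. Zfp36, which destabilises cytokine mRNAs, stood at 1450 CPM against 137 CPM (log2 ratio 3.40), and a median member had 6 UMIs after thinning where a median reference cell had 0. Btg2, an antiproliferative gene, was at 3340 and 346 CPM (3.27). The NF-kB inhibitors Tnfaip3 and Nfkbia had 244 and 22.5 CPM (3.38) and 615 and 110 CPM (2.47). Trib1, a pseudokinase, was at 85.6 and 9.37 CPM (3.06), Socs3, an inhibitor of JAK/STAT signalling, at 179 and 22.5 CPM (2.94), and Errfi1, an inhibitor of EGFR, at 550 and 75.7 CPM (2.84). Ier3 had 345 and 60.1 CPM (2.50). Socs1, the relative of Socs3, was the lowest member, at 15.1 CPM and 23.1 CPM (−0.58).

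**Figure D3:**
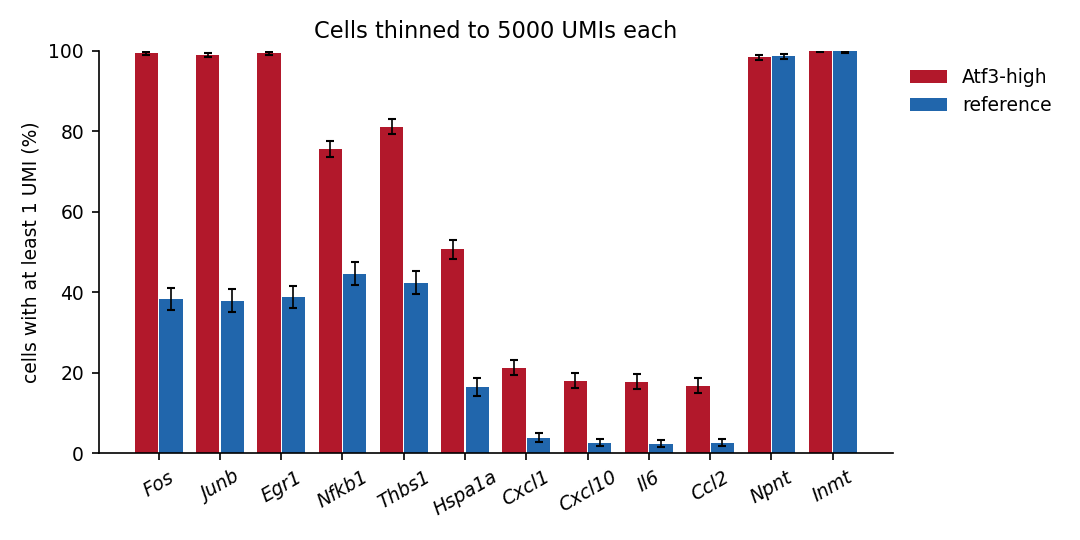
Percentage of cells with at least 1 UMI of each gene (y axis) after every cell was thinned to 5000 UMIs, in 1719 Atf3-high cells (red) and 1206 reference cells (blue); bars carry exact 95% Clopper-Pearson intervals. Fos, Junb and Egr1 were seen in nearly every member, the cytokines in 16.7% to 21.2% of members, and Npnt and Inmt in nearly every cell of each class.

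Stress pathways that can lead to Atf3 were higher in single genes. The ATF4 branch, through which cells with starvation or protein-folding stress induce Atf3, was listed with 22 genes, of which 8 reached the 10 CPM limit. Of these 8, 2 were at least 2-fold higher and the median was 0.04. They were Ppp1r15a, which reverses the translational block of this pathway, at 161 CPM and 24.6 CPM (log2 ratio 2.66), and the amino acid transporter subunit Slc3a2 at 133 and 61.5 CPM (1.10). Atf4 itself stood at 144 and 93.3 CPM (0.62), and Ddit3, which encodes the death-linked factor CHOP, at 108 CPM in members (104 to 112) and 118 CPM in the reference (112 to 124), a ratio of −0.13. Atf5 was lowest at 215 and 280 CPM (−0.38). Of the 14 genes of this list below the limit, Gdf15, a secreted stress factor, had 253 UMIs in members and 11 in the reference (2.69), and the cystine transporter gene Slc7a11 had 246 and 54 (1.14). The other 12 genes below the limit had log2 ratios of −0.39 (Stc2) to 0.55 (Ddit4). None of the 12 ER stress chaperones passed 2-fold in either direction, and their median was 0.01. Of all genes 3.5% were higher and 0.322% lower, so a count of 0 among 12 is near the share of all genes. The range ran from Hsp90b1 (580 and 668 CPM, −0.20) to Hspa5, the chaperone BiP, at 821 and 648 CPM (0.34).

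Heat shock genes split. Of the 14, 6 were at least 2-fold higher, with a list median of 0.28. Higher were the inducible Hspa1a (312 and 63.7 CPM, log2 ratio 2.27) and Hspa1b (65.4 and 29.2 CPM, 1.14), whose near-identical transcripts can share reads, their co-chaperones Dnajb1 (176 and 31.4 CPM, 2.45) and Dnajb4 (274 and 123 CPM, 1.15), the co-chaperone Bag3 (167 and 54.1 CPM, 1.61) and the small heat shock gene Hspb1 (2095 and 677 CPM, 1.63). The other genes of the list were not 2-fold higher. Among them were Hsph1 (37.8 and 29.2 CPM, 0.36), Hspa8 (0.19), Hsp90aa1 (0.14), Dnaja1 (0.12), Hspd1 (0.09) and Hspe1 (−0.23). The lowest were Hsp90ab1 (720 and 881 CPM, −0.29) and Chordc1 (40.8 and 50.3 CPM, −0.29). Among p53 targets 2 of 12 were higher, with a median of −0.02: the cell cycle inhibitor Cdkn1a at 198 and 41.7 CPM (2.22) and the death receptor Fas at 149 and 62.7 CPM (1.24). Phlda3 was lowest at 104 and 164 CPM (−0.65).

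Cytokine and chemokine genes were high in a subset of the members. Of the 21 genes of the list 11 reached the 10 CPM limit, 6 of these were at least 2-fold higher, and the median of the 11 was 2.14. The limit is on all gated cells, and Ccl7 and Il33, at 7.39 and 7.97 CPM in the reference, passed it through the cells with Atf3 UMIs. With genes of at least 1 CPM included the median was 0.63, below the 2-fold line. Cxcl1, a neutrophil attractant, stood at 263 CPM in members (256 to 270) and 21.4 CPM in the reference (18.9 to 24.2), a log2 ratio of 3.56. The interferon-induced Cxcl10 was at 182 and 15.1 CPM (3.50), Il6 at 129 and 15.3 CPM (2.99), and the monocyte attractants Ccl2 and Ccl7 at 187 and 22.9 CPM (2.98) and 42.9 and 7.39 CPM (2.39). Lif, an IL-6 family cytokine, had 51.9 and 11.0 CPM (2.14). Cxcl14, which FBs express at rest, was lowest, at 649 and 784 CPM (−0.27). After thinning, Cxcl1 was seen in 21.2% of members and 3.8% of reference cells, Cxcl10 in 17.98% and 2.49%, Il6 in 17.7% and 2.2%, and Ccl2 in 16.7% and 2.5% (27.5% and 6.3%, 23.04% and 3.73%, 24.5% and 3.2%, and 21.7% and 4.5% before thinning). In 70 Ptprc barcodes of the library (median 8748 UMIs) thinned alike, Ccl2 was seen in 12.9% (6.05 to 23.01), Cxcl1 in 8.57% (3.21 to 17.7), Cxcl10 in 7.14% (2.36 to 15.9) and Il6 in 0 of 70, which by the limit of 3 counts allows a share of cells with a UMI at this depth of up to 4.29% (the exact interval reaches 5.13%). The members' share for Ccl2 lay within the interval of these leukocyte barcodes, so detection of Ccl2 alone does not set members apart from them. Unlike the members, the Ptprc barcodes and the Pecam1 barcodes below were not selected on Atf3, so these shares do not compare cell types alone. In 31 Pecam1 barcodes Ccl2 and Cxcl1 were each seen in 1, and Il6 and Cxcl10 in 0, which allows up to 9.68% by the same limit (11.2% by the exact interval).

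In 334 members 2 or more of these 4 transcripts were detected at this depth, at which a transcript that is present can be missed. In 877 members (51.0%) none of Il6, Cxcl1, Ccl2 and Cxcl10 was seen at 5000 UMIs, in 508 1 was seen, in 253 2, in 73 3, and in 8 all 4. Among reference cells 1091 (90.5%) had none, 101 had 1, 11 had 2, 3 had 3 and 0 had all 4. The members with at least 1 differed from those with none in more than these genes, which is given as a description because the split was made after the values were seen. Nfkb1, which encodes an NF-kB subunit, stood at 1674 CPM in the 842 members with at least 1 and 458 CPM in the 877 with none. The metallothionein gene Mt1 was at 2123 and 563 CPM, Tnfaip3 at 371 and 104.7 CPM, and the hexokinase gene Hk2 at 80.5 and 15.3 CPM. Fos was at 3718 and 4435 CPM and Egr1 at 2185 and 2079 CPM in the same cells, and the median depth was 12703 and 11674 UMIs.

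Of NF-kB subunits and targets, 10 of 13 were at least 2-fold higher and the median was 1.69. Nfkb1 led at 1093 CPM against 175 CPM (log2 ratio 2.63), and a median member had 2 UMIs after thinning and the highest 73. Sod2, a mitochondrial antioxidant enzyme, was lowest at 130 and 97.7 CPM (0.40). The interferon response list, by contrast, had a median of −0.12, from Gbp2 (35.4 and 26.5 CPM, 0.41) to Ifit3 (29.3 and 37.9 CPM, −0.36). Of its 8 genes 0 were past 2-fold, near the shares of all genes (3.5% higher and 0.322% lower).

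Promoters of 4 of these genes are shown because they carry, or lack, the short sequences that AP-1, CRE-binding (ATF/CREB) and NF-kB factors are known to recognise. Each is the RefSeq window of 250 bases before to 50 after the start (build GRCm38.p6), on the gene's strand, with matches in capitals. The strings searched on each strand were TGANTCA for AP-1, TGACGTCA for CRE, GAANNTTC for the heat shock element, and the NF-kB and serum response elements. The window of Atf3 lies at chr1:191183284-191183583 (minus strand), that of Ppp1r15a at chr7:45526219-45526518 (minus), that of Il6 at chr5:30012864-30013163 (plus) and that of Cxcl1 at chr5:90890995-90891294 (plus).
Atf3: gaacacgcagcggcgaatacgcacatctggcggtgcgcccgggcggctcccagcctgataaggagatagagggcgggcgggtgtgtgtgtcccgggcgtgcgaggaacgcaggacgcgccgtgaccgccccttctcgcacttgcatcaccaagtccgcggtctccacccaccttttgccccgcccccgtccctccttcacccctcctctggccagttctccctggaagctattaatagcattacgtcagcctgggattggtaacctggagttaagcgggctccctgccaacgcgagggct
Ppp1r15a: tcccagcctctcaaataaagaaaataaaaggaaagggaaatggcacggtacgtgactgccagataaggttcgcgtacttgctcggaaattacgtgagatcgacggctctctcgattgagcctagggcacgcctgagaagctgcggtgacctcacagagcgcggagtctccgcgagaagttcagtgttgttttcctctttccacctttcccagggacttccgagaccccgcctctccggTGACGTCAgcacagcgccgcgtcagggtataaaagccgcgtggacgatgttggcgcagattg
Il6: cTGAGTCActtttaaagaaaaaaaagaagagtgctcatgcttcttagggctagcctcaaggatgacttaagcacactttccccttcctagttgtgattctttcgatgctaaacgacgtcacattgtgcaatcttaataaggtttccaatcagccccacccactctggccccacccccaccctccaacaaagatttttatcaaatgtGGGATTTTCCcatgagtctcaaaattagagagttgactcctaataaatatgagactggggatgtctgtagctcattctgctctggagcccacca
Cxcl1: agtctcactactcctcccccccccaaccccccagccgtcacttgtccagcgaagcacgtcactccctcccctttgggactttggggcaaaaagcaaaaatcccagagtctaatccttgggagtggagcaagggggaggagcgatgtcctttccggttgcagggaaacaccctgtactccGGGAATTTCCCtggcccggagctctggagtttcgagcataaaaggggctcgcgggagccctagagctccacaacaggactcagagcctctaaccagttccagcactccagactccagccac
Ppp1r15a holds a CRE 12 bases before its start. Il6 holds an NF-kB match 44 bases and an AP-1 match 249 bases before its start, and Cxcl1 holds 2 overlapping NF-kB matches that begin 71 and 70 bases before its start. The window of Fos was searched as well and is not printed. It holds 1 match, for NF-kB, 214 bases before the start of Fos, and none for the other strings. The Atf3 window holds none of these exact strings, which says only that these letters are not in it. In GENCODE M21 the Atf3 gene reaches from chr1:191170296 to chr1:191218039 on the minus strand. The window shown therefore lies inside the annotated gene, at 1 RefSeq start, and the sequence at the gene's outer end was not searched.

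Promoter windows were found for 223 of the 293 higher genes and 6676 of the 8378 genes compared. An NF-kB match lay in 10.2% of the 313 windows of the higher genes, in 5.11% of the 8599 windows of all genes compared and in 4.51% of all 32851 windows of the table. A CRE match lay in 6.39%, 3.09% and 1.79%. For AP-1 the shares were 6.39%, 5.01% and 7.81%, for the serum response element 2.24%, 1.30% and 1.63%, and for the heat shock element 7.03%, 5.45% and 7.86%. A match is a description of the letters, and binding was not measured.

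Genes of mechanical and growth factor signalling were higher in part. Of 15 YAP and SRF targets 2 were at least 2-fold higher, with a median of 0.28: the matricellular genes Ccn1 (1958 and 314 CPM, log2 ratio 2.64) and Thbs1 (1816 and 406 CPM, 2.16). Cnn2 was lowest (149 and 166 CPM, −0.15). Of 11 TGF-β and BMP response genes 5 were higher, with a median of 0.70. Among them Id3, an inhibitor of helix-loop-helix factors, was at 2273 and 461 CPM (2.30), and Bmp4 was lowest at 132 and 169 CPM (−0.36). The glucocorticoid list had 4 of 9 higher and a median of 0.33, from Mt1 at 1377 and 228 CPM (2.59) to Hsd11b1, which activates glucocorticoids, at 1345 and 1875 CPM (−0.48). Of 13 hyaluronan and protease genes 4 were higher (median 0.38), from the hyaluronan synthase Has1 (29.2 and 2.38 CPM, 3.16) to Serpine2 (329 and 387 CPM, −0.23).

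The genes by which alveolar FBs and LipoFBs are known stayed within 2-fold, as most genes compared did. Of 24 alveolar and lipofibroblast genes, 0 were past 2-fold in either direction. Of all genes 3.5% were higher and 0.322% lower, so this count alone does not set the list apart. Its median was −0.30, and 7 of the 24 lay above the median of all genes. Inmt, an amine methyltransferase, stood at 4650 CPM in members (4622 to 4678) and 5997 CPM in the reference (5954 to 6041), a log2 ratio of −0.37. In thinned cells a median member had 23 Inmt UMIs (range 0 to 65) and a median reference cell 29 (0 to 134), and the classes overlapped over most of their range. The matrix gene Npnt was at 1956 and 2043 CPM (−0.06), and Mettl7a1, a lipid droplet protein, at 735 and 1136 CPM (−0.63). The lowest was the receptor Fgfr4, at 81.8 and 130 CPM (−0.66). The highest was Plin2, which coats lipid droplets, at 367 and 199 CPM (0.88). Tcf21, which the gate used, was at 464 and 660 CPM.

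Structural genes were close to the median gene. Of 25 matrix genes 1 was at least 2-fold higher, near the share of all genes (3.5%). It was Tnc, a glycoprotein of injured tissue, at 282 and 73.1 CPM (log2 ratio 1.93). The matrix median was 0.03, and Fn1 was lowest at 760 and 1013 CPM (−0.41). Of 13 mesenchymal transcription factors 2 were higher, with a median of 0.03, from Foxf1, a target of hedgehog signalling, at 32.3 and 12.2 CPM (1.34) to Klf15 at 18.7 and 33.6 CPM (−0.82). Growth factor receptors had 0 of 17 past 2-fold, also near the share of all genes. Their median was 0.12, from Egfr (205 and 108 CPM, 0.92) to Pdgfra, the gene of the reporter, at 549 and 767 CPM (−0.48). Of the nuclear RNAs, Neat1, the scaffold of paraspeckles, was at 697 and 304 CPM (1.19) and Malat1 at 23413 and 24716 CPM (−0.08).

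Markers of other cell types ranged from near 0 for blood and vessel cells to high levels for adventitial FBs. Mesothelial, endothelial, lymphoid and erythrocyte lists had no gene at 10 CPM, and their summed levels were 0.223, 4.69, 1.43 and 0.402 CPM in members and 0.575, 4.76, 2.63 and 0.657 CPM in the reference. The Adh7 and Wif1 FB, smooth muscle and mural, and proliferation lists had 1 gene each at 10 CPM, with log2 ratios of −0.54 (Hhip), −0.43 (Des) and 0.29 (Pcna). Of 9 adventitial markers compared 1 was 2-fold higher, Ly6a at 16.7 and 7.23 CPM (1.10), the lowest was Cd34 at 110 and 146 CPM (−0.40), and the median was 0.06. Adventitial markers as a list summed to 4105 CPM in members and 3764 CPM in the reference, and Dcn was at 817 and 441 CPM (0.89). The part of adventitial-like cells in the results was not tested beyond leaving out cells of over 5000 CPM in the 7 markers above, which kept 1518 members and 1114 reference cells, after which 293 genes were higher and 21 lower. Myeloid and epithelial lists summed to 19.9 and 33.5 CPM in members and to 38.1 and 341 CPM in the reference, with Lyz2 (−2.10), Sftpc (−4.28) and the club cell gene Scgb1a1 (−0.51) the genes compared. Wif1 was at 0 in both classes, Msln and Hba-a1 at 0 in members, and Wt1, Tie1, Cd79b, Nkg7, Mki67 and Cdk1 at 0 in the reference.

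The 10 genes with the lowest ratios were Sftpc, Snhg20, Lyz2, Gm29811, Bmp8a, Gm11444, Afap1l1, Cpa3, Gm44148 and B430010I23Rik. Sftpc, a surfactant gene of AEC2s, had 296 UMIs in members and 3353 in the reference (log2 ratio −4.28), but 3131 of the latter (93.4%) lay in 1 reference barcode of 31341 UMIs. That barcode also held 260 of the 336 reference UMIs of Lyz2, a lysozyme gene that AEC2s and macrophages share. Without it Sftpc stood at 13.2 CPM in members and 18.3 CPM in the reference (−0.44) and Lyz2 at 5.67 and 6.26 CPM (−0.12), so neither was 2-fold lower. The other genes were spread over cells. Snhg20, a small nucleolar RNA host gene, was seen in 3.5% of thinned members and 19.7% of thinned reference cells (8.8% and 31.6% before), at 7.32 and 38.1 CPM (−2.23). Bmp8a, a BMP ligand, was at 22.4 and 80.3 CPM (−1.79), and Cpa3, a mast cell protease gene, at 7.45 and 23.2 CPM (−1.52). The noncoding Gm29811, at chr3:132842202-132878596 beside Tbck (GENCODE M21), had 6.20 and 25.8 CPM (−1.90).

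The 10 genes with the highest ratios were Gm12840, Csrnp1, Nr4a3, Gm17268, Cxcl1, Cxcl10, Fosb, Zfp36, Klf4 and Tnfaip3. Gm12840, a lincRNA at chr4:117700188-117700923 with Dmap1 as the nearest coding gene at 17915 bases, had 1527 UMIs in members and 31 in the reference, 68.1 and 2.55 CPM (log2 ratio 4.29). It was seen in 13.2% of thinned members and 1.0% of thinned reference cells (19.1% and 1.5% unthinned). Gm17268, at chr11:82028224-82038562 on the minus strand, overlaps Ccl2 on the plus strand, and had 53.3 and 3.45 CPM (3.61). Unless reads were counted by strand, which is not given in the sources used here for this library, the reads of Gm17268 and Ccl2 cannot be told apart. Hk2, the inducible hexokinase, ranked 11 at 49.4 and 4.03 CPM (3.32).

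Levels differed in steps along the Atf3 range. Within cells of 10000 to 20000 UMIs, where the classes differ little in depth (medians of 12067 to 13317 UMIs), Fos stood at 538 CPM at 0 Atf3 UMIs, 1876 CPM at 1 to 4, 3354 CPM at 5 to 9, 3743 CPM at 10 to 19 and 4757 CPM at 20 or more. Zfp36 ran from 164 through 605, 1104 and 1470 to 1607 CPM. Cxcl1 did not follow this order at the top: it ran from 26.9 through 100.2 and 254 to 319 CPM and was 213 CPM in the cells with most Atf3. Il6 had the same shape, with 145 CPM at 10 to 19 UMIs and 113 CPM at 20 or more. Mettl7a1 ran the other way, from 1062 CPM at 0 to 700 CPM at 10 to 19 and 768 CPM at 20 or more, and Npnt stayed between 1937 and 2084 CPM in all 5 classes.

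**Figure D4:**
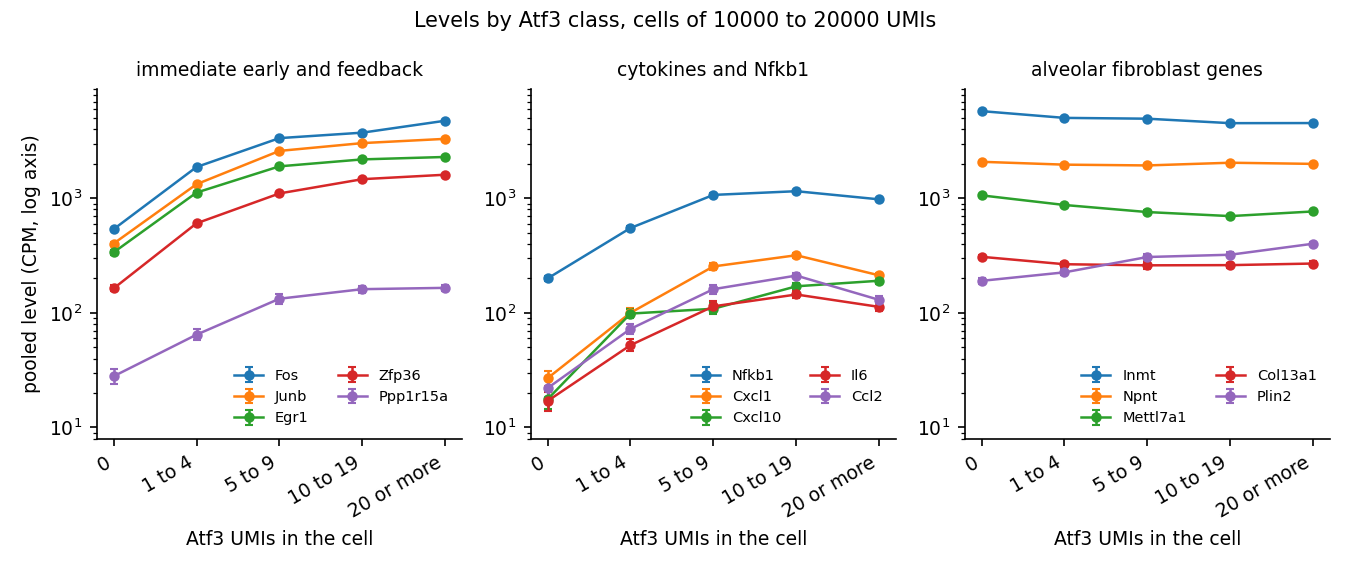
Pooled level in CPM (y axis, log scale) by Atf3 UMIs in the cell (x axis) among gated cells of 10000 to 20000 UMIs of the repetitive PBS library; bars are exact 95% Poisson intervals, mostly smaller than the points. Fos, Junb, Egr1, Zfp36 and Ppp1r15a are highest at 20 or more, Cxcl1 is 319 CPM at 10 to 19 and 213 CPM at 20 or more, and the alveolar genes except Plin2 are highest at 0.

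The same gate and classes were then applied to the other lung libraries, whose cells did not choose the members. The repetitive bleomycin library gave 319 Atf3-high and 1160 Atf3-zero cells, the single-dose PBS library 69 and 254, and the single-dose bleomycin library 6 and 253. The last was too small to compare, and with 1 library per condition the values below carry no test. In repetitive bleomycin cells 2.19% of 8852 genes were 2-fold higher in the Atf3-high class and 0.474% 2-fold lower. Of the 293 genes, 276 could be compared there, 158 of them (57.2%) were 2-fold higher as well, 273 had a ratio above 0, and the median was 1.12. In single-dose PBS cells 2.12% of 7516 genes were higher and 3.41% lower. There 213 of the 293 could be compared, 54 (25.4%) were 2-fold higher, 175 were above 0, 4 were 2-fold lower, and the median was 0.51. Of the 27 lower genes, 21 could be compared in repetitive bleomycin cells. There 7 were 2-fold lower, where 0.474% of all genes were, and 18 were below 0. In single-dose PBS cells 0 of 11 were 2-fold lower, where 3.41% of all genes were, and 7 were below 0.

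A set of 48 genes were 2-fold higher in all 3 libraries. It includes Fos, Fosb, Jun, Junb and Jund of AP-1, Egr1, Klf4 and Nr4a1, the inhibitors Zfp36, Btg2 and Dusp1, and Ppp1r15a, Hspa1a and Thbs1. Fos was at 4136 CPM in Atf3-high and 490 CPM in Atf3-zero cells of repetitive bleomycin lungs, and at 5217 and 1425 CPM in single-dose PBS lungs. The Atf3-high levels of the 3 libraries thus lay between 4061 and 5217 CPM, and the single-dose reference was the highest of the references. The AP-1 median was 2.21 over 7 genes in repetitive bleomycin cells and 1.67 over 6 genes in single-dose PBS cells.

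For cytokines and NF-kB the 2 other libraries had different values. The cytokine median was 1.61 in repetitive bleomycin cells (6 of 11 genes higher) and −0.19 in single-dose PBS cells (1 of 8 higher, Cxcl1 at 49.3 and 15.9 CPM). The 8 genes leave out Il6, Lif and Ccl7, which were 2-fold higher in the members, so these medians cover unlike sets of genes. Among the 8, the single-dose Atf3-high class held 4 UMIs of Cxcl10 and 9 of Ccl2. For NF-kB the medians were 1.25 (7 of 13) and −0.10 (2 of 11). Nfkb1 had 1051 and 224 CPM in the 2 classes of repetitive bleomycin cells and 61.2 and 69.4 CPM in those of single-dose PBS cells, where the Atf3-high class held 36 Nfkb1 UMIs. Il6 stood at 265 and 27.8 CPM in the former and 28.9 and 4.11 CPM in the latter, on 17 UMIs and below the 10 CPM limit over all gated cells. The single-dose cells were also shallower, with a median of 8308 UMIs in the Atf3-high class, and their table was made with another gene annotation. The part of these in the difference was not tested. The alveolar genes had medians of −0.40 and −0.34, beside −0.30 in the members.

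**Figure D5:**
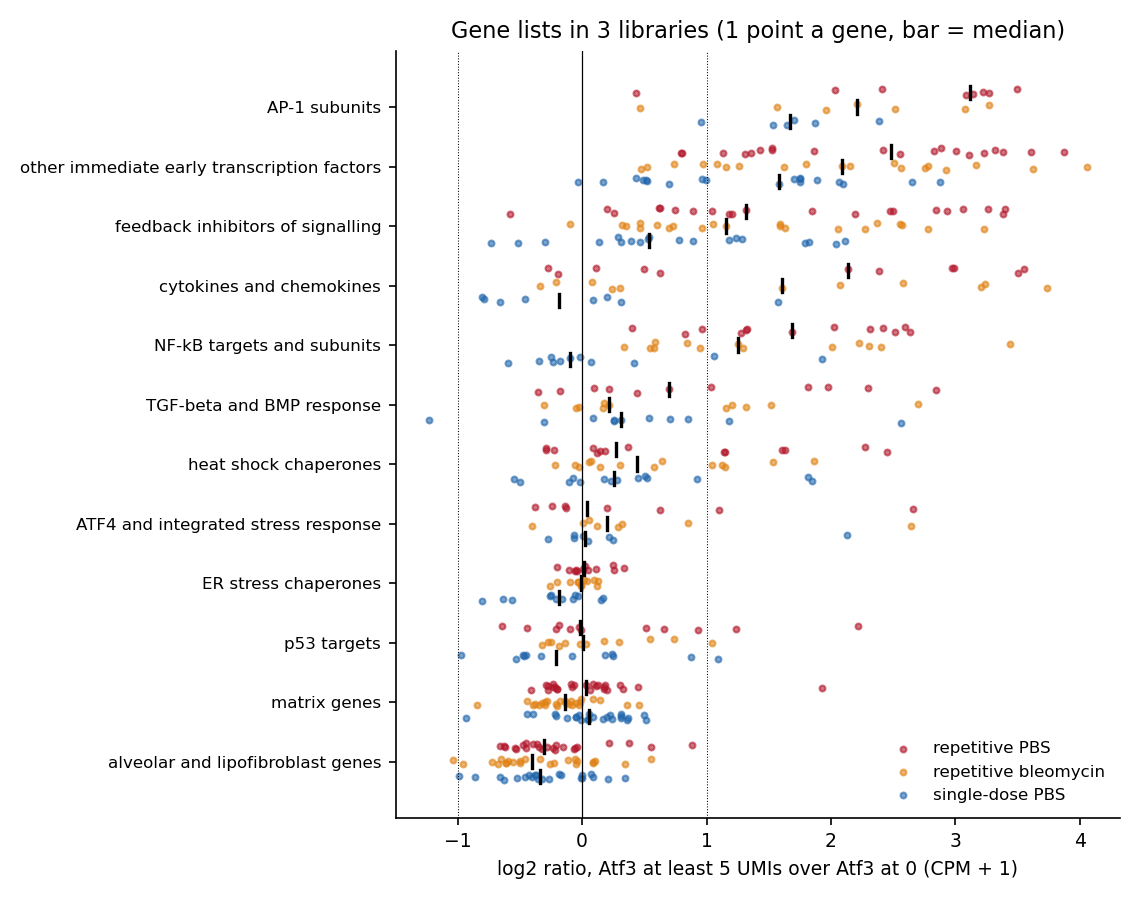
Log2 ratio of cells with at least 5 Atf3 UMIs over cells with none (x axis), 1 point for each gene of 12 lists (y axis) in the repetitive PBS (red), repetitive bleomycin (orange) and single-dose PBS (blue) libraries; black bars are medians and dotted lines mark −1 and 1. AP-1 medians are 3.12, 2.21 and 1.67, over 8, 7 and 6 genes. The cytokine medians are 2.14, 1.61 and −0.19, over 11, 11 and 8 genes. Each median takes the genes at 10 CPM or more in its library, so the sets of genes differ.

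Atf3-high cells were most frequent in the library that supplied the members. They were 48.0% of its gated cells (95% Clopper-Pearson interval 46.4 to 49.7), 18.1% in repetitive bleomycin (16.3 to 19.9), 14.9% in single-dose PBS (11.8 to 18.5) and 1.85% in single-dose bleomycin (0.68 to 3.97). In cells thinned to 5000 UMIs the shares were 34.2%, 7.13%, 8.42% and 0.308%. Each condition is 1 library, so the pool of mice and its preparation cannot be told apart from treatment here. Within the repetitive PBS library high Atf3 was not limited to alveolar FBs: after thinning at least 5 UMIs were seen in 31.2% of the 93 adventitial barcodes (22.0 to 41.6), 25.8% of 31 Pecam1 barcodes and 7.14% of 70 Ptprc barcodes, before thinning 46.2%, 35.5% and 15.7%.

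The adventitial barcodes allowed the same comparison within the library, on 43 Atf3-high and 28 Atf3-zero cells. With so few cells, 11.8% of the 8484 genes compared were 2-fold higher and 10.2% 2-fold lower. Of the AP-1 list 6 of 8 genes were 2-fold higher and 0 lower there (median 1.71), of the immediate early list 17 of 19 higher and 1 lower (1.67), of the cytokine list 7 of 11 higher and 2 lower (1.80), and of the NF-kB list 9 of 13 higher and 0 lower (1.96). Of the ER stress chaperones 0 of 12 were higher and 3 lower (−0.53). The difference from the members was not tested.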

How the data were processed

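Lung cells of Pdgfra-GFP mice were profiled by droplet single-cell RNA-Seq (10x Genomics), 1 library per condition. Per the labels, reads were processed with Cell Ranger 3.0.1 on mm10. The deposited values are raw UMI counts, whole numbers that the authors did not normalize, as 1 matrix of genes and barcodes per library. The study's methods name Gencode M17 and kit v2 for the single-dose libraries; for the repetitive libraries these are not given in the sources used here. Libraries held 7201081 to 238618743 UMIs.

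The members and gene lists were chosen with earlier results of these data known. Counts were summed per class and scaled to CPM. Classes were then compared by the log2 ratio of these values, each increased by 1 CPM, for genes at 10 CPM or more over all gated cells, leaving out the genes of the gate and Atf3. A ratio past 1 in size is called higher or lower. Exact 95% Poisson and Clopper-Pearson intervals cover counting error only, and a count of 0 allows 3 counts. With 1 library per condition no p-value was computed. A count model across libraries was planned for 3 other libraries with at least 20 cells in each class, and 2 had them. Shares were also computed in cells thinned to 5000 UMIs. Doublets were not removed. Older symbols of the single-dose PBS table (304) were updated through RefSeq synonyms. Named genes are the highest and lowest of each of 29 lists, up to 8 called genes of the AP-1, immediate early, feedback, stress, heat shock, cytokine and alveolar lists, and the 10 highest and lowest genes overall. Other genes named (among them Atf4, Ddit3, Inmt, Npnt, Mettl7a1, Thbs1, Id3, Gdf15, Slc7a11, Hk2, Dcn and those whose promoters are shown) were chosen after their values were seen. A gene that this rule for named genes would select is not reported here. Python 3.11.15, numpy 2.4.6, scipy 1.17.1, pandas 2.3.3 and matplotlib 3.10.9 were used, and the scripts were tested on simulated data.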

Additional observations from a re-analysis of the deposited data

Results flagged for a closer look

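A group of 4 genes was 2-fold higher in the Atf3-high cells of the repetitive PBS library and 2-fold lower in those of the single-dose PBS library, by the same gate and classes. The difference was not tested, since each condition is 1 library. Slc39a14, a zinc and iron transporter gene, had a log2 ratio of 1.87 in repetitive PBS cells and −1.60 in single-dose PBS cells. Ptpn2, a phosphatase gene, had 1.40 and −1.47. Slc25a33, a mitochondrial carrier gene, had 1.19 and −1.76, and Prkab2, an AMPK subunit gene, had 1.11 and −1.07. Their Atf3-high single-dose PBS cells held 2, 4, 2 and 3 UMIs of these genes, so the single-dose ratios rest on few counts. These are 4 of the 213 higher genes that could be compared, while 3.41% of all 7516 genes compared in single-dose PBS cells were 2-fold lower, so the number is not above that background.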

How the results depend on the processing

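The count of higher genes stayed between 225 and 383 under all 13 other settings against 293. The count of lower genes, 27, was 6 with a pseudocount of 10 CPM, 14 after centring on the median gene and 206 with genes of at least 1 CPM, whose ratios rest on few UMIs, and 21 to 35 otherwise. Without the reference barcode rich in Sftpc, a setting chosen after seeing the data, 295 genes were higher and 24 lower. The share of Atf3-high cells, 48.0%, was 34.2% after thinning and 54.3% for at least 3 Atf3 UMIs. The cytokine median, 2.14, was 0.63 with genes of at least 1 CPM, which adds cytokine genes of few UMIs. Medians were compared across settings for 19 lists. Apart from the cytokine list these kept their side of 2-fold, and none reversed. The epithelial and myeloid lists, with 2 and 1 genes compared, were not among the 19. Their medians of −2.40 and −2.10 rest on Sftpc and Lyz2, which stood at −0.44 and −0.12 without the reference barcode rich in Sftpc. Of the named genes, Hspa1b, Foxf1, Ly6a, Sftpc and 5 of the lowest genes lost their call, and Plin2, Egfr and Dcn gained one, under at least 1 setting. The limit of 10% mitochondrial UMIs removed no cell of either class.

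All values come from 1 pool of 3 mice per condition, so the error between mice is unknown. The edgeR fits and their alternatives (DESeq2, no filter, leave-one-out, thinning, all 4 libraries) were not run, because 1 of the 3 other libraries had 6 Atf3-high cells. No paired analysis was possible because the labelled groups are 1 library each and share fewer than 2 replicate numbers. Class sums paired by library, a different pairing, were among the fits not run. Genes below 10 CPM, among them Cxcl2 and Il11, are limited by depth.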

Other observations

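Transcripts of an unnamed kind stand among both ends of the ranking. Besides Gm12840, the lincRNA Gm26532, at chr8:84208920-84209609 and 1069 bases from Zswim4 (GENCODE M21), had 161 CPM in Atf3-high and 20.1 CPM in reference cells (log2 ratio 2.94). It was chosen after its values were seen. Several genes on no list were also high: Tnfaip6, which crosslinks hyaluronan, at 349 and 36.2 CPM (3.23), Homer1 at 112 and 12.4 CPM (3.08), Mpp7 at 409 and 50.8 CPM (2.98) and Gem, a small GTPase gene, at 275 and 40.8 CPM (2.72). In single-dose PBS cells by the same rule Gem had a ratio of 1.83 and Mpp7 of −0.07, the latter on 4 UMIs. Of the 293 higher genes 85 were on a list, and of the 27 lower genes 2.

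Gdf15, a gene of the ATF4 list below the 10 CPM limit over all gated cells, had 11.3 CPM in Atf3-high cells (9.94 to 12.8) and 0.904 CPM in the reference. It was seen in 2.79% of thinned members (4.71% unthinned), with up to 23 UMIs in a thinned cell, so a few cells carry the pooled level. It was 2.75 CPM in cells with 1 to 4 Atf3 UMIs, 2.82 CPM at 5 to 9, 11.3 CPM at 10 to 19 and 15.2 CPM at 20 or more.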
